A study of Mus musculus with 24 samples.

Results

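The miR-17 to miR-92 cluster is a group of miRNAs cut from 1 transcript, and its 6 main strands (on the array mmu-miR-17, mmu-miR-18a, mmu-miR-19a, mmu-miR-19b, mmu-miR-20a and mmu-miR-92a, written below without the mouse prefix) were followed here across 3 mouse mammary carcinoma lines. The 6 were taken by name, with no measured value used, from the 558 mouse miRNA probes of a 2-dye miRNA array, and each had 1 probe. All 6 passed the filter on dim probes, among 365 probes that did. The lines were 67NR, which the labels call nonmetastatic, 4TO7, called systemically invasive, and 4T1, called highly metastatic. These are sister lines used as a model of graded metastatic ability, so each grade stands on 1 cell line and the line and the grade cannot be told apart.

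Each line was grown for 6 days in 3D organotypic culture in a compliant or a rigid microenvironment. Each culture was given either TGF-beta or a compound that inhibits the type I receptor for TGF-beta, the receptor kinase through which TGF-beta signals. The labels call the inhibitor cultures basal, and no group had neither agent, so a rise with TGF-beta and a fall with the inhibitor cannot be told apart. The 12 groups of line, microenvironment and agent held 2 arrays each, named set 1 and set 2, which gave 24 arrays on 5 slides. The labels do not say whether the sets came from separate cultures, so p-values here cover only array-to-array spread, which may be technical.

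The primary transcript of the cluster is made in the nucleus and cut into hairpins, from which short mature strands are released and loaded into Argonaute proteins. A mature strand pairs with messenger RNAs mainly through its seed, bases 2 to 8 from its 5′ end, and lowers their stability or translation. The cluster is known as a target of MYC and E2F factors and as a promoter of proliferation and survival in many tumours, and its known messenger targets include those of Bim, Cdkn1a and the TGF-beta type II receptor. The miR-17 and miR-20a strands are known to act on Cdkn1a and on the type II receptor. miR-18a is known to act on SMAD and connective tissue growth factor transcripts. miR-19a and miR-19b are known as strong contributors to the cluster's oncogenic activity, and miR-92a for a role in vessel growth and integrin expression.

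In RefSeq (GRCm38.p6) the 6 hairpins lie in 836 bases of the plus strand, chr14:115043671-115044506, in the order Mir17, Mir18, Mir19a, Mir20a, Mir19b-1 and Mir92-1. The hairpins are 80 to 107 bases long, and the last starts 756 bases after the first. All 6 members matched a RefSeq mature strand, and the sequences are shown because the members fall into 4 seeds. In each line below the capitals mark the seed.
miR-17, chr14:115043684-115043706: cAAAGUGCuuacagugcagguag
miR-20a, chr14:115044183-115044205: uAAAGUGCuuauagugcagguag
miR-18a, chr14:115043867-115043889: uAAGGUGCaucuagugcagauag
miR-19a, chr14:115044048-115044070: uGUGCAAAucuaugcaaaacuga
miR-19b, chr14:115044358-115044380: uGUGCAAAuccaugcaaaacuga
miR-92a, chr14:115044476-115044496: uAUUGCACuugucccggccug

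miR-17 and miR-20a had the same seed and differed by 2 bases, C1U and C12U, with positions counted from 1 at the 5′ end of the mature strand and the miR-17 base given first. miR-19a and miR-19b had the same seed and differed by 1 base, U11C, with the miR-19a base first. miR-18a and miR-92a each had a seed of their own among the 6. Mature miR-19b and miR-92a are also encoded on the minus strand of the X chromosome, at chrX:52741991-52742013 and chrX:52741854-52741874, in the paralogous miR-106a cluster. The array cannot tell these 2 sources apart. The sequence of each probe was not given in the sources used here, so the part of a signal that comes from a strand 1 or 2 bases away is not known, and levels were not compared between probes.

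Each probe's deposited value is relative: the DY649 signal of the culture divided by the DY547 signal of a synthetic reference. Levels below are the log2 of this intensity after quantile normalization. A probe was counted as detected where its deposited detection p was under 0.05. On the 24 arrays 313 to 357 of the 558 miRNA probes were detected, and array medians before normalization ranged from 7.29 to 7.87 in log2 intensity. The deposited error of the members, taken as a percent of their intensities, was 2.63 to 13.2, with a median of 6.05, and no member carried a fail code. The lowest correlation between the 2 arrays of a group was r = 0.996 across the 558 miRNA probes before normalization. The median residual SD of a tested probe within groups was 0.0764, and those of the members were 0.0629 for miR-92a to 0.124 for miR-20a.

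All 6 main strands were higher in 4TO7 and in 4T1 than in 67NR, and for each of them no array of 67NR reached the lowest array of the other lines. The 4 strands detected in every line differed from 67NR by 1.72 to 2.77 on the log2 scale. In 4T1, 5 of the 6 were also above 4TO7, by 0.11 to 0.43. Within a line, no member differed by more than 0.30 between agents averaged over microenvironments, or between microenvironments averaged over agents. With TGF-beta, miR-17 was higher in 4TO7, while miR-92a and miR-19a were lower in 4T1. miR-18a was also lower there, but its call was lost in most of the other settings tried.

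**Figure D1:**
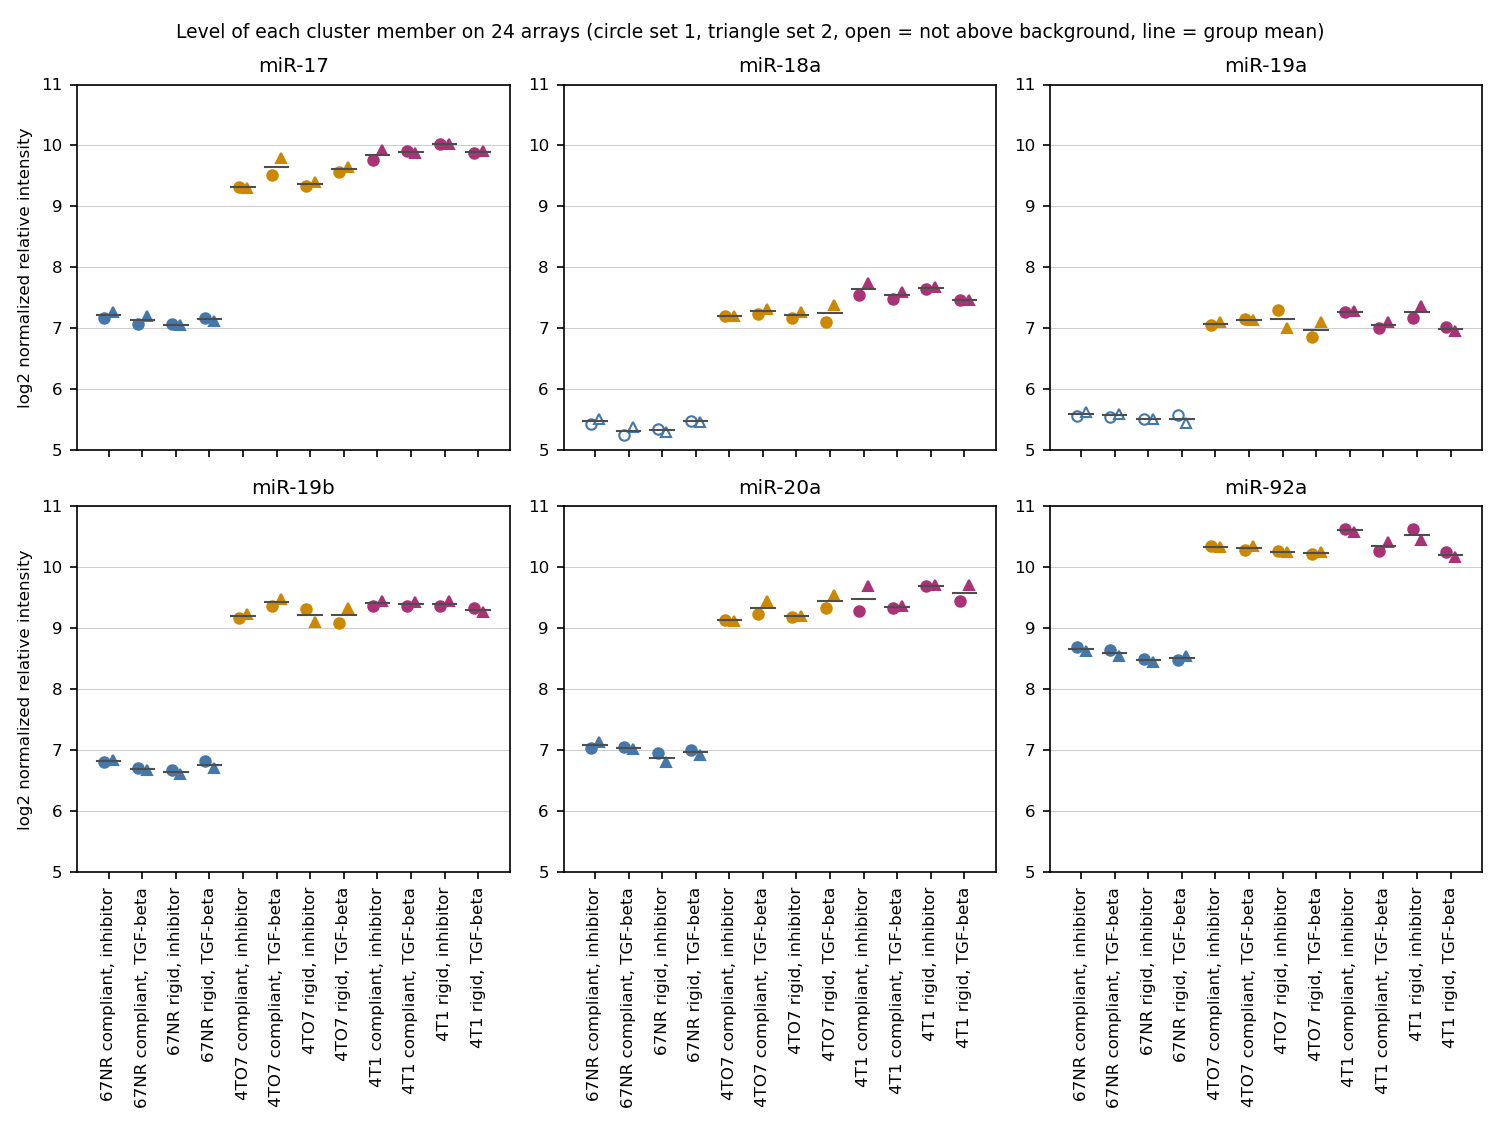
Normalized log2 relative intensity (y axis) of each main strand on all 24 arrays, by group (x axis: line, microenvironment, agent). Circles are set 1, triangles set 2, open symbols arrays where the probe was not detected, and short lines group means. In each panel the 8 arrays of 67NR lie apart below the 16 others, and miR-18a and miR-19a are open on all 8 of them.

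miR-17, the first strand of the cluster, was measured in 67NR at a lowest, median and highest log2 level of 7.05, 7.15 and 7.27 over 8 arrays. In 4TO7 the same values were 9.30, 9.45 and 9.79, and in 4T1 they were 9.77, 9.90 and 10.03. The lowest 4T1 array lay just below the highest 4TO7 array, and 67NR overlapped neither. The difference from 67NR was 2.34 ± 0.04 (SE) in 4TO7, a 5.07-fold higher level, and 2.77 ± 0.04 in 4T1, a 6.83-fold higher level, with adjusted p = 2.7e-17 and 1.7e-18 (limma, Benjamini-Hochberg over 365 probes). The deposited intensities before normalization had medians of 148.3 in 67NR, 638.6 in 4TO7 and 1019 in 4T1.

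miR-20a, which has the seed of miR-17, lay at 6.81, 7.01 and 7.14 in 67NR, at 9.12, 9.22 and 9.55 in 4TO7 and at 9.28, 9.57 and 9.71 in 4T1 (lowest, median and highest). The 4TO7 and 4T1 arrays overlapped, and both stood above all of 67NR. The rise over 67NR was 2.28 ± 0.06 in 4TO7 and 2.53 ± 0.06 in 4T1, or 4.86-fold and 5.79-fold, with adjusted p = 2.6e-15 and 4.4e-16. Its spread between sets was the largest of the 6, and the 4T1 compliant inhibitor arrays lay 0.41 apart, at 9.28 and 9.69.

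miR-19b, which shares its seed with miR-19a, lay at 6.61, 6.71 and 6.84 in 67NR, at 9.09, 9.28 and 9.49 in 4TO7 and at 9.26, 9.37 and 9.44 in 4T1. Its rise over 67NR was 2.53 ± 0.04 in 4TO7 and 2.65 ± 0.04 in 4T1, or 5.78-fold and 6.26-fold, with adjusted p = 2.4e-17 and 3.2e-18. In 4TO7 this was the largest difference among the 4 strands detected in every line. The 4T1 arrays all lay inside the range of the 4TO7 arrays.

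miR-92a, the last strand of the cluster, was detected in all lines, with levels of 8.45, 8.54 and 8.70 in 67NR, 10.22, 10.27 and 10.35 in 4TO7 and 10.17, 10.43 and 10.63 in 4T1. Its detection p in 67NR was 0.0028 to 0.0354, still under the threshold on all 8 arrays. Its rise over 67NR was 1.72 ± 0.04 in 4TO7 and 1.86 ± 0.04 in 4T1, or 3.31-fold and 3.63-fold, with adjusted p = 2.1e-16 and 3.9e-17. The 4T1 arrays of this strand spread over a wider range than those of 4TO7, on both sides of them.

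miR-18a was detected on 0 of 8 arrays of 67NR, where its signal was 5.26, 5.41 and 5.51, and on all 8 arrays of each other line. Its levels were 7.11, 7.22 and 7.38 in 4TO7 and 7.46, 7.57 and 7.74 in 4T1, 2 ranges that did not overlap. Since 67NR was not above background, its rise is given as a bound against the lowest detected signal of any probe on those arrays. Detection is specific to the probe, so this bound is not a strict lower limit. It was 2.54-fold in 4TO7 and 3.21-fold in 4T1. The fit gave adjusted p = 3.3e-16 and 2.0e-17 for these comparisons.

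miR-19a was likewise detected on 0 of 8 arrays of 67NR, with signals of 5.45, 5.55 and 5.63. Its levels were 6.86, 7.10 and 7.31 in 4TO7 and 6.96, 7.14 and 7.38 in 4T1, ranges that overlapped almost entirely. Its bound, in the same sense, was 2.29-fold in 4TO7 and 2.38-fold in 4T1, and the fit gave adjusted p = 2.4e-14 and 7.2e-15.

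These rises stood against a background in which most probes moved. In 4TO7 against 67NR, 86.8% of the tested probes passed the threshold of an adjusted p under 0.05, 29.9% as higher and 57% as lower. In 4T1 against 67NR 89.6% passed, 30.7% as higher and 58.9% as lower. All 8 arrays of a line stood above all 8 of 67NR for 18.4% of the tested probes in 4TO7 and for 23% in 4T1, against 6 of 6 members. The median difference of the members was 2.06 in 4TO7 and 2.36 in 4T1, where the median of all tested probes was -0.15 and -0.22. With miR-18a and miR-19a at their bounds the members' medians were 2.003 and 2.197. Under the other scalings tried, the median of all probes lay between -0.18 and -0.08 in 4TO7 and between -0.28 and -0.16 in 4T1, and that of the members between 2.02 and 2.12 and between 2.30 and 2.45.

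**Figure D2:**
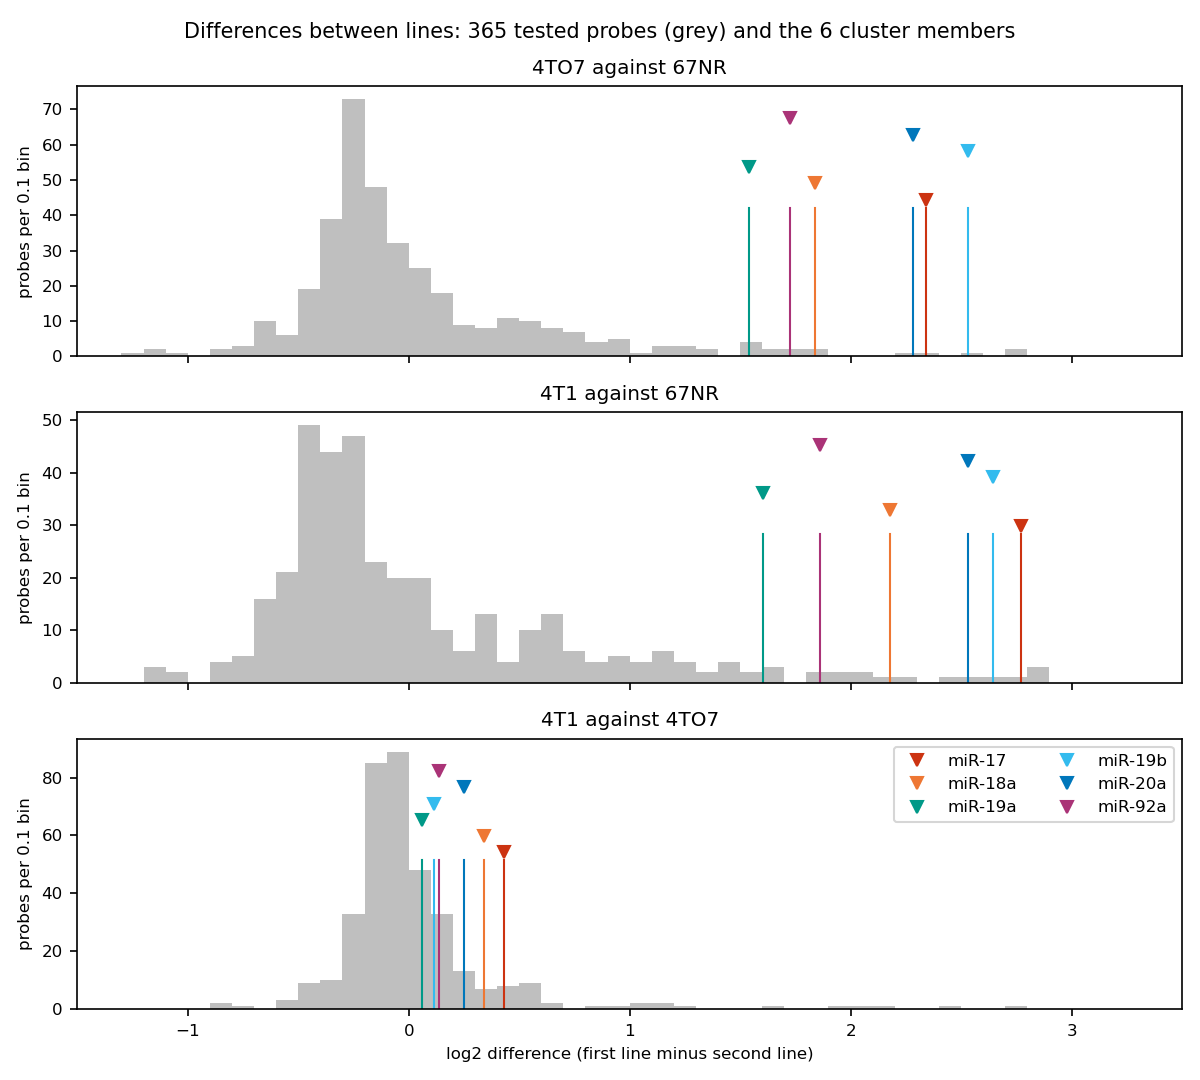
Histograms of the log2 difference between lines (x axis) for the 365 tested probes (y axis: probes per bin of 0.1), with coloured lines and triangles for the 6 main strands. The members lie in the right tail against 67NR (medians 2.06 and 2.36) and closer to the bulk in 4T1 against 4TO7 (median 0.19).

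Slides did not each hold every group, so pairs of arrays from the same slide, microenvironment and agent were compared as well. There were 4 such pairs of 4TO7 and 67NR on 2 slides, 2 of which share a 67NR array, and every member was higher in 4TO7 in each of them. The 4 strands detected in both lines differed by 1.71 (miR-92a) to 2.64 (miR-19b). All members were also higher in the 3 such pairs of 4T1 and 67NR on 2 slides, 2 of which again share a 67NR array, and these 4 differed by 1.72 (miR-92a) to 2.76 (miR-17).

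Some miRNAs known as markers of a cell type also moved with the line. Of the 4 fibroblast and mesenchymal markers on the array, 4 were detected in 67NR and 3 in each other line, with miR-143 detected on 8 arrays of 67NR and on 0 of 8 in 4TO7 and in 4T1. The log2 of their summed intensities was 13.5 to 13.8 in 67NR, 13.1 to 13.2 in 4TO7 and 12.8 to 13.1 in 4T1. This sum follows miR-214, which alone had mean levels of 13.65, 13.08 and 12.78. Of the 6 epithelial markers, miR-200b, miR-200c and miR-429 were detected on all 8 arrays of 4T1 and on 0 of 8 in 67NR and in 4TO7. miR-200a was detected on 1, 6 and 8 arrays of 67NR, 4TO7 and 4T1, and miR-205 on 0, 2 and 0. miR-141 was detected on 8 arrays of each line. The log2 of the summed epithelial intensities, undetected signals included, was 8.59 to 8.68 in 67NR, 8.69 to 9.14 in 4TO7 and 10.6 to 10.8 in 4T1. Their part in the difference of the cluster between lines was not tested. Of 3 muscle probes, miR-206 was detected on 8 arrays of 67NR and on 0 of 8 in each other line. miR-208b was detected on all arrays and miR-1 on none. Of 3 neural and liver probes, miR-122 was detected on all arrays and miR-124 on none. miR-128 was detected on 0, 3 and 3 arrays of 67NR, 4TO7 and 4T1. A detected marker probe was therefore not taken to show a cell type. Both endothelial probes (miR-126-3p and miR-126-5p) and 5 of the 6 blood and leukocyte probes were detected on no array, while miR-451 was detected on all of them. Fewer cells of a type and less RNA per cell cannot be told apart in these whole-culture samples.

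Between the lines with high levels the differences were small, and 5 of the 6 members passed as higher in 4T1 than in 4TO7, where 63% of all tested probes passed, 23% as higher and 40% as lower. With the arrays scaled by the median of all probes, the tested probes that passed were 69 higher and 194 lower in place of 84 and 146. miR-17 was higher by 0.43 ± 0.04 (adjusted p = 1.3e-07) and miR-18a by 0.34 ± 0.04 (adjusted p = 1.8e-06). miR-20a was higher by 0.25 ± 0.06 (adjusted p = 0.0015), miR-92a by 0.14 ± 0.04 (adjusted p = 0.0035) and miR-19b by 0.11 ± 0.04 (adjusted p = 0.027). miR-19a differed by 0.06 ± 0.05 (95% confidence interval -0.04 to 0.16, adjusted p = 0.26).

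The call for miR-19b was lost with slide as a fixed block (0.14, adjusted p = 0.074) and without any 1 of 8 of the arrays, 4 of each line, where the difference was between 0.08 and 0.11. miR-19a passed without the 4TO7 rigid inhibitor array of set 1 (0.10, adjusted p = 0.043) and from the authors' deposited log2 values (0.11, adjusted p = 0.036). Only 2 pairs of matched arrays shared a slide, and in these miR-17 was higher by 0.34 and 0.47 and miR-18a by 0.34 and 0.35, while miR-92a differed by -0.05 and 0.30. Averaged over conditions, the order of the lines was 67NR, 4TO7, 4T1 for miR-17, miR-18a, miR-20a and miR-92a, with miR-19b less certain in its upper step and miR-19a not separated there. For miR-92a the upper step was seen in the inhibitor cultures, where group means were 10.61 in 4T1 against 10.34 in 4TO7 (compliant) and 10.54 against 10.26 (rigid). With TGF-beta they were 10.34 against 10.32 and 10.21 against 10.24. This difference between agents was not tested on its own.

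With TGF-beta against the inhibitor, averaged over the lines, 2 of 6 members passed and both were lower: miR-92a by -0.11 ± 0.03 (adjusted p = 0.0061) and miR-19a by -0.11 ± 0.04 (adjusted p = 0.035). Of all tested probes 39.5% passed, 21.4% as higher and 18.1% as lower. miR-17 differed by 0.08 ± 0.03 (adjusted p = 0.055). It passed as higher with either set block (adjusted p = 0.035 and 0.040), with array weights (0.041), without the variance trend (0.049) and from the authors' deposited log2 values (0.026). It also passed without any 1 of 4 arrays: 67NR compliant inhibitor set 2, 67NR compliant TGF-beta set 1, 4TO7 compliant TGF-beta set 1 or 4T1 compliant inhibitor set 2. The differences of miR-18a, miR-19b and miR-20a were -0.04, 0.02 and 0.04 (adjusted p = 0.38, 0.69 and 0.52). The median over the members was -0.01 and that of all tested probes 0.01.

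Both calls depended on the scaling and on whether slide was fitted as a fixed block. Scaled by the median of the probes detected on every array, miR-92a differed by -0.07 (adjusted p = 0.066) and miR-19a by -0.08 (adjusted p = 0.077). With slide as a fixed block the differences stayed near, at -0.103 ± 0.042 and -0.096 ± 0.051, with adjusted p = 0.085 and 0.17. The SE without this block were 0.029 and 0.037. With slide as a random block, where the correlation within slides was -0.014, both calls held. The call for miR-19a was also lost without any 1 of 12 of the 24 arrays, with adjusted p up to 0.075, while that for miR-92a held without each of them. The 144 tested probes that passed were 78 higher and 66 lower, against 100 and 52 with that scaling, 43 and 84 with the median of all probes, and 110 and 50 in the authors' value table.

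The effect of the agents differed between lines for miR-17 and miR-92a. An F test of the TGF-beta effect between lines passed for miR-17 (adjusted p = 0.014) and miR-92a (adjusted p = 0.015), 2 of 6 members, where 14.5% of the tested probes passed. The adjusted p was 0.10 for miR-20a, 0.15 for miR-19a, 0.18 for miR-18a and 0.32 for miR-19b. miR-20a passed with the set number within line as a block (adjusted p = 0.046) and without the 4T1 compliant inhibitor array of set 1 (0.012). miR-19a passed from the authors' deposited log2 values (0.044) and without the 4TO7 rigid inhibitor array of set 1 (0.044), and miR-18a without the 4TO7 rigid TGF-beta array of set 1 (0.037). With slide as a fixed block neither passed, with adjusted p = 0.072 for miR-17 and 0.24 for miR-92a.

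**Figure D3:**
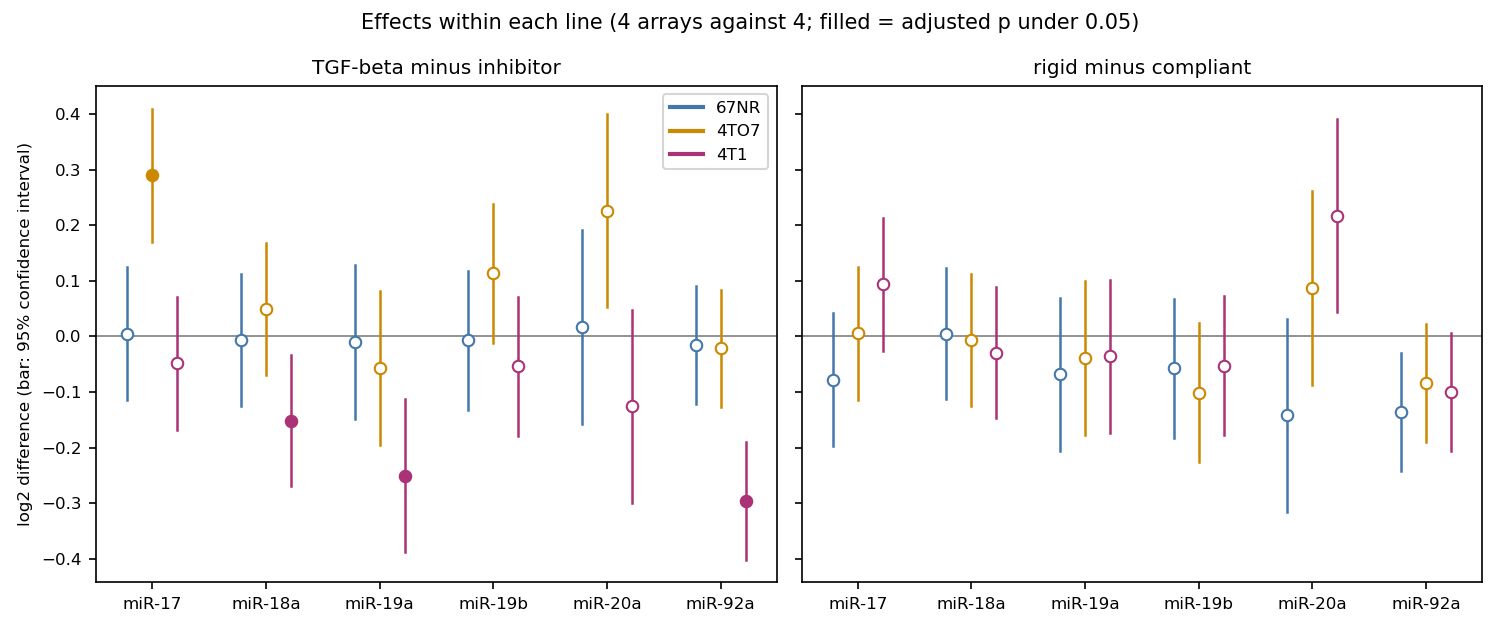
Log2 difference (y axis) of TGF-beta minus inhibitor (left) and rigid minus compliant (right) for each main strand (x axis) in each line, 4 arrays against 4. Bars are 95% confidence intervals and filled points passed the adjusted threshold: miR-17 in 4TO7 (0.29) and miR-18a, miR-19a and miR-92a in 4T1 (-0.15, -0.25 and -0.30), with none on the right.

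In 67NR no member passed (limma), where 11% of the tested probes did, 3.29% as higher and 7.67% as lower. The 6 differences lay between -0.02 and 0.02, with adjusted p of 0.92 or more and no unadjusted p under 0.05, where 97 of the 365 tested probes had one. The 4 members detected in this line were all lower with TGF-beta in compliant culture, by -0.13 (miR-19b) to -0.05 (miR-20a), and all higher in rigid culture, by 0.04 (miR-92a) to 0.12 (miR-19b), as differences of group means. Their 95% confidence intervals reached from -0.16 to 0.19 at the widest (miR-20a), so a difference of the size seen in 4TO7 for miR-17 lay outside the interval of miR-17 itself (-0.11 to 0.12). miR-18a and miR-19a were below background in both arms of this line.

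In 4TO7, miR-17 lay at 9.32 and 9.30 (sets 1 and 2) in compliant culture with the inhibitor and at 9.51 and 9.79 with TGF-beta. In rigid culture it lay at 9.34 and 9.40 with the inhibitor and at 9.56 and 9.65 with TGF-beta. All 4 TGF-beta arrays were above all 4 inhibitor arrays. The share of all tested probes that separated in this way between agents was not counted. The difference was 0.29 ± 0.06 (95% confidence interval 0.17 to 0.41, adjusted p = 0.0011), and 21.4% of the tested probes passed, 9.59% as higher and 11.8% as lower. Matched pairs from the same slide gave 0.50 on 1 slide and 0.26 and 0.31 on another, the last 2 with the same TGF-beta array. miR-17 passed under each of the 34 alternatives, with differences of 0.22 to 0.36.

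miR-20a in 4TO7 lay at 9.15 and 9.12 against 9.23 and 9.44 in compliant culture and at 9.19 and 9.21 against 9.34 and 9.55 in rigid culture, inhibitor first. Here too the 4 TGF-beta arrays were above the 4 inhibitor arrays, but the difference of 0.23 ± 0.08 did not pass (adjusted p = 0.064). Its call was gained with array weights (adjusted p = 0.030) and from the authors' deposited log2 values (adjusted p = 0.037). It also passed without any 1 of 5 arrays, set 1 of both 4TO7 TGF-beta groups among them. The other 4 members had differences of -0.06 to 0.11 and adjusted p of 0.20 or more.

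In 4T1, 3 of the 6 members passed, all lower with TGF-beta, where 31.8% of the tested probes passed, 12.6% as higher and 19.2% as lower. Scaled by the probes detected on every array, the probes that passed were 80 higher and 54 lower in place of 46 and 70. The median over the members was -0.14 and that of all tested probes 0.02.

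miR-92a in 4T1 lay at 10.63 and 10.58 with the inhibitor and at 10.26 and 10.42 with TGF-beta in compliant culture. In rigid culture it lay at 10.63 and 10.45 with the inhibitor and at 10.25 and 10.17 with TGF-beta. All 4 inhibitor arrays were above the 4 TGF-beta arrays, by a small gap, and the difference was -0.30 ± 0.05 (95% confidence interval -0.40 to -0.19, adjusted p = 0.00025).

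miR-19a in 4T1 lay at 7.26 and 7.29 against 7.01 and 7.11 in compliant culture and at 7.17 and 7.38 against 7.02 and 6.96 in rigid culture, inhibitor first. The 2 arms did not overlap, and the difference was -0.25 ± 0.06 (adjusted p = 0.0074). For miR-92a and miR-19a alike, the share of all tested probes with such a separation in 4T1 was not counted. miR-18a lay at 7.54 and 7.74 against 7.48 and 7.60 and at 7.65 and 7.68 against 7.47 and 7.46. Its arms overlapped, and its difference was -0.15 ± 0.06 (adjusted p = 0.049). The call was lost without any 1 of 20 of the 24 arrays, and in all in 26 of the 34 alternatives. These included scaling by the probes detected on every array (-0.09, adjusted p = 0.19), the authors' deposited log2 values (-0.09, adjusted p = 0.15) and array weights (adjusted p = 0.070).

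miR-17, miR-19b and miR-20a differed by -0.05, -0.05 and -0.13 in 4T1 and did not pass (adjusted p = 0.53, 0.50 and 0.24). Without the 4T1 compliant inhibitor array of set 1, miR-20a differed by -0.23 (adjusted p = 0.021). No slide held both agents of a matched 4T1 culture. With slide as a fixed block no member passed, although the values stayed near: -0.28 for miR-92a (adjusted p = 0.062), -0.24 for miR-19a (adjusted p = 0.17) and -0.17 for miR-18a (adjusted p = 0.25). That block left 50 of the 365 tested probes past the threshold in 4T1, in place of 116.

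Over the 6 members and both microenvironments, the group means with TGF-beta were above those with the inhibitor in 5 of 12 comparisons in 67NR, 9 of 12 in 4TO7 and 1 of 12 in 4T1. The members come from 1 transcript, so the 12 are not independent, and no such count was taken over all tested probes. The 9 in 4TO7 included miR-19b in rigid culture, at 0.0004. The exception in 4T1 was miR-17 in compliant culture, at 0.04. Averaged over the lines, the TGF-beta effect was compared between rigid and compliant culture. This difference passed for 0 of the 6 members and for 0 of the 365 tested probes (0%) in limma. At an unadjusted p under 0.05 these counts were 0 and 22. The members' differences of effect lay between -0.10 and 0.06. Lines that move in opposite directions cancel in this average, and the difference was not tested within a line.

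Rigid against compliant culture, averaged over lines, gave 1 call among the members, miR-92a at -0.11 ± 0.03 (adjusted p = 0.017), where 21.9% of the tested probes passed, 10.7% as higher and 11.2% as lower. The difference of miR-92a was -0.14, -0.08 and -0.10 in 67NR, 4TO7 and 4T1. With slide as a fixed block it was -0.11 with adjusted p = 0.080. The other 5 members differed by -0.07 to 0.05 (adjusted p of 0.16 or more). Scaled by the probes detected on every array, the tested probes that passed were 20 higher and 45 lower, in place of 39 and 41.

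Within single lines no member passed for rigidity (limma). Of the tested probes 11% passed in 67NR, 6.3% as higher and 4.66% as lower. In 4TO7 2.74% passed, 0.822% as higher and 1.92% as lower, and in 4T1 7.4% passed, 3.56% as higher and 3.84% as lower. At an unadjusted p under 0.05 there was 1 member in 67NR, 0 in 4TO7 and 1 in 4T1, where 87, 62 and 83 of the 365 tested probes had such a p. The members were miR-92a in 67NR (-0.14 ± 0.05, adjusted p = 0.10) and miR-20a in 4T1 (0.22 ± 0.08, adjusted p = 0.12). miR-20a in 4T1 lay at 9.28 and 9.69 in compliant culture with the inhibitor and at 9.69 and 9.71 in rigid culture with it. With TGF-beta it lay at 9.34 and 9.37 against 9.44 and 9.71. Without the 4T1 compliant inhibitor array of set 2, the array at 9.69, the difference was 0.32 (adjusted p = 0.014). The F test of rigidity between lines passed for 0 of 6 members and for 8.22% of the tested probes.

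Among the strands opposite the main strands in the same hairpins, miR-20a* was higher in 4TO7 and 4T1 than in 67NR, miR-92a* was lower, and miR-17* did not pass. These passenger strands, marked with a star, are usually degraded after the main strand is loaded. The array held 5 of them, and 3 passed the filter on dim probes, while miR-18a* and miR-19a* were detected on no array. Detection was specific to the probe and not a fixed intensity, since miR-18a* was not detected at 7.58 to 7.83. Shown with their seeds in capitals are the 2 detected in all lines, as a contrast to miR-17 and miR-92a.
miR-17*, chr14:115043721-115043742: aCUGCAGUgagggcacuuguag
miR-92a*, chr14:115044437-115044459: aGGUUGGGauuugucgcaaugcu

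miR-17* had ranges of 7.63 to 7.85 in 67NR, 7.57 to 7.75 in 4TO7 and 7.59 to 7.74 in 4T1, which overlapped. Its difference from 67NR was -0.02 ± 0.02 in both comparisons (adjusted p = 0.30 and 0.46), where miR-17 from the same hairpin differed by 2.34 and 2.77. Over the 34 alternatives tried, from other scalings to leaving out an array, these differences of miR-17* stayed between -0.05 and 0.10, and it passed as higher in 2 of them in 4TO7 and in 1 in 4T1. miR-92a* had medians of 13.01, 12.85 and 12.60, and was lower than 67NR by -0.21 ± 0.06 in 4TO7 (adjusted p = 0.0024) and by -0.44 ± 0.06 in 4T1 (adjusted p = 1.5e-06). Its differences over the alternatives were -0.51 to -0.14 and -0.66 to -0.41, and the first lost its call with the set number within line as a block (adjusted p = 0.055). miR-92a thus rose where the probe of its opposite strand fell. Of all tested probes 57% passed as lower in 4TO7 and 58.9% in 4T1, and 29.9% and 30.7% as higher. The median differences of all tested probes were -0.15 and -0.22, so the fall of miR-92a* in 4TO7 was near that of the median probe. miR-20a* was detected on 0 of 8 arrays of 67NR and on 8 of each other line. Its bounds were 1.56-fold in 4TO7 and 1.62-fold in 4T1 (adjusted p of the fit = 3.1e-10 and 6.1e-11). The level used for them was close to its own undetected signal in 67NR (6.165 against 6.163).

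With TGF-beta over all lines, 2 of the 3 tested passenger strands were higher and none lower: miR-17* by 0.08 ± 0.02 (adjusted p = 0.0012) and miR-20a* by 0.11 ± 0.03 (adjusted p = 0.016). Of all tested probes 39.5% passed here, 21.4% as higher. In single lines, miR-17* passed in 67NR (0.13 ± 0.03, adjusted p = 0.012) and miR-20a* in 4TO7 (0.17 ± 0.06, adjusted p = 0.036). In these lines 11% and 21.4% of the tested probes passed. The first call was lost without either of 2 arrays, 67NR compliant TGF-beta set 2 or rigid TGF-beta set 1, and with the median of all probes as the scale, and the second in 7 of the 34 alternatives (adjusted p up to 0.18). In 4T1 both had positive differences that did not pass (0.07 and 0.15, adjusted p = 0.080 and 0.059).

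**Figure D4:**
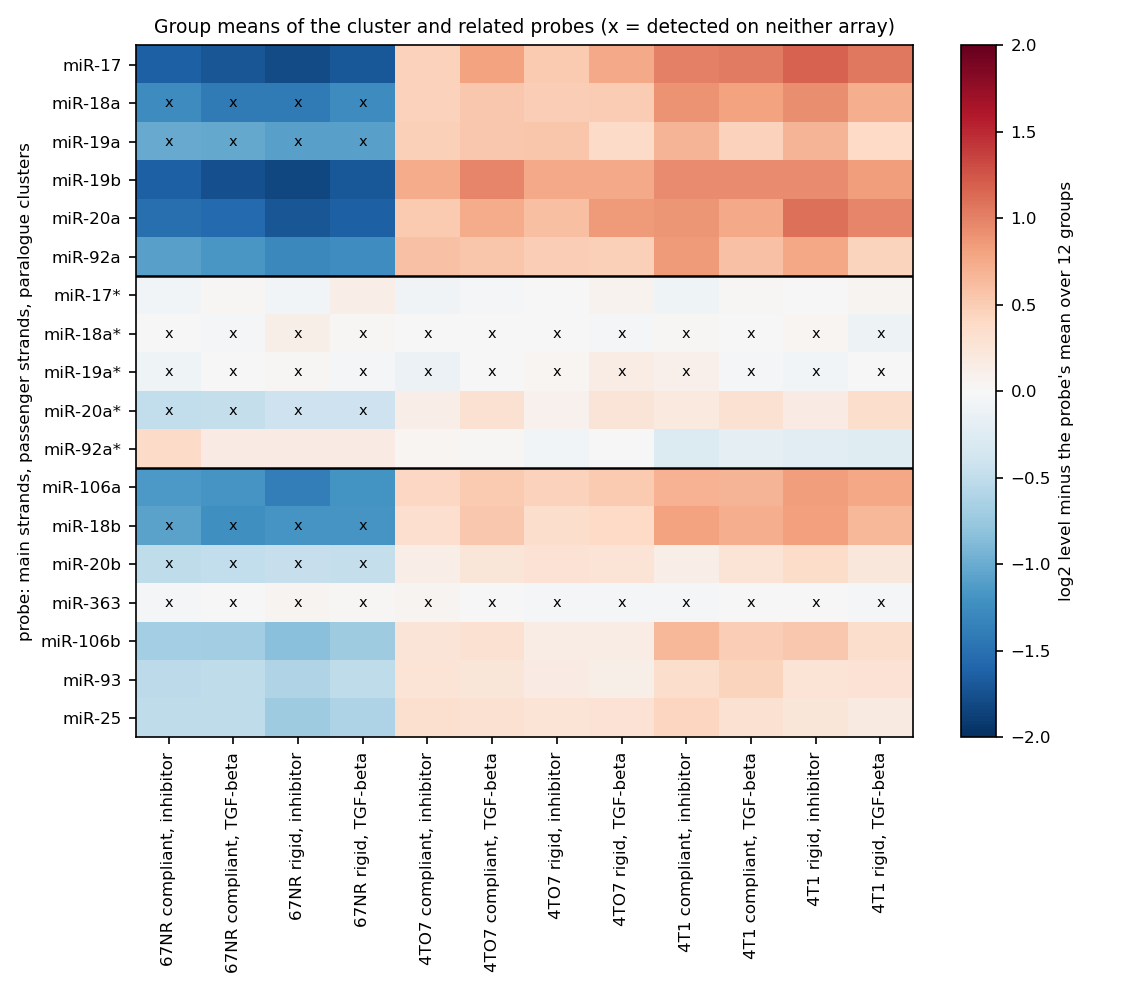
Group means of the main strands, the passenger strands and the strands of the paralogous clusters (rows), each minus the mean of its own 12 groups (colour, log2), by group (columns); a cross marks groups where neither array was detected. The main strands and the 6 detected paralogous strands are low in all 4 columns of 67NR, and miR-17* and miR-92a* are not.

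The paralogous clusters, the miR-106a cluster on the X chromosome and the miR-106b cluster on chromosome 5, encode strands with the same seeds. Shown are close neighbours of miR-17, miR-18a and miR-92a on the minus strands, since signals of such similar strands may not be separable on the array. miR-106a differs from miR-17 by 1 base, U10A, and miR-18b from miR-18a by 2, A18U and A20U, with the member's base first.
miR-106a, chrX:52742541-52742563: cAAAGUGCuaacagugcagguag
miR-18b, chrX:52742381-52742403: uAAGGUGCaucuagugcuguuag
miR-25, chr5:138165332-138165353: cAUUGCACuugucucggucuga

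Of the 7 paralogous strands on the array 6 were tested, and miR-363 was detected on no array. All 6 were higher than 67NR in both other lines, by 0.72 to 1.71 in 4TO7 (median 0.91) and by 0.73 to 1.97 in 4T1 (median 1.06), beside the members' medians of 2.06 and 2.36. Among all tested probes 29.9% passed as higher in 4TO7 and 30.7% in 4T1, and the medians over these probes were -0.15 and -0.22. With miR-18b and miR-20b, not detected in 67NR, at their bounds, the medians of the 6 were 0.91 and 1.06. For miR-20b, the lowest of the 6 at 0.72 and 0.73, the bound was set at its own undetected signal. The calls of the 6 strands against 67NR all held in the 34 alternatives. miR-106a rose by 1.71 ± 0.05 and 1.97 ± 0.05, and its ranges were 6.51 to 6.90 in 67NR, 8.41 to 8.69 in 4TO7 and 8.63 to 8.91 in 4T1. miR-18b was detected on 0 of 8 arrays of 67NR, and its bounds were 1.96-fold in 4TO7 and 2.49-fold in 4T1. miR-25, which has the seed of miR-92a and differs from it at 3 of the 21 positions compared, rose by 0.88 ± 0.05 in both lines. In 4T1 against 4TO7, 4 of the 6 passed as higher, where 63% of the tested probes passed and 23% as higher. With TGF-beta over all lines 0 of 6 passed (limma), where 39.5% of the tested probes passed, and 0 had an unadjusted p under 0.05, where 176 of the 365 tested probes had one.

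The probes whose 12 group means followed the members' mean profile most closely were, by Pearson r over the groups, the shared probe of miR-467a and miR-467b (0.998), miR-106a (0.998), miR-18b (0.996), miR-96 (0.993) and miR-182 (0.990). The members themselves had r of 0.995 to 0.998 with their own mean profile. The groups share slides, normalization and a large step between 67NR and the other lines, so these values describe that step. miR-96 and miR-182, strands of the miR-183 cluster, had mean levels of 8.87 and 9.82 in 4TO7 and of 8.98 and 9.93 in 4T1. In 67NR miR-182 was at 7.04 and detected on 7 of 8 arrays, while miR-96 (signal 6.12) was detected on 0 of 8. The miR-467a and miR-467b probe was also detected on 0 of 8 there, and was at 8.16 in 4TO7 and 8.38 in 4T1.

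The profiles farthest from the members were those of miR-143 (r = -0.991), miR-145 (r = -0.989) and miR-761 (r = -0.987). miR-143 and miR-145, known as smooth muscle and mesenchymal miRNAs cut from 1 transcript, were at 7.01 and 8.98 in 67NR. miR-143 was detected on 0 of 8 arrays of each other line, and miR-145 was at 8.10 in 4TO7 and 7.90 in 4T1. miR-761 was at 11.43 in 67NR, 10.65 in 4TO7 and 10.56 in 4T1.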

How the data were processed

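Total RNA of the cultures was profiled on 24 miRNA arrays of the 2-dye kind. Per the file headers, the deposited intensity is relative (sample over synthetic reference), linear, background-subtracted and corrected for labelling by the authors, without scaling between arrays. The deposited files also give, per probe, an error, a detection p-value and a fail code. The authors' value table holds log2 intensity of 338 probes, equal to the log2 of the deposited intensity plus 1 constant per array (largest deviation 5.9e-06). Image software and versions are not given in the sources used here.

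Quantile normalization over 558 miRNA probes used limma (version 3.58.1, under R version 4.3.3). The filter kept a probe with detection p under 0.05 on both arrays of any group and a fail code on fewer than 12 arrays. A model of 12 group means (12 residual degrees of freedom) was fitted with lmFit and eBayes with trend. For each comparison the p-values (two-sided tests) of all 365 probes were adjusted together (Benjamini-Hochberg, threshold 0.05). The script was tested on simulated data. Group labels came from the sample titles and slides from the array identifiers. Arms of the array names were assigned from current nomenclature. The number of arrays limits the precision.

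A bound for a line below background is set against a mean over its arrays. For each array this takes the higher of the lowest detected signal of any probe and the probe's own signal. Detection is specific to the probe, so such a bound is not a strict lower limit. Members were taken by name, but the cluster, the lists and the alternatives were chosen with earlier results of these data known. Named probes were the members, both related lists, and the 5 most and 3 least similar profiles. Alternatives were 2 median scalings, the authors' table, no filter, slide and set blocks, array weights, no trend, and leaving out each array, where a lone array is assumed to vary like the other groups.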

Additional observations from a re-analysis of the deposited data

Results flagged for a closer look

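The effect of TGF-beta against the inhibitor on miR-17 differed between lines (F test in limma, adjusted p = 0.0143): the difference was 0.01 in 67NR, 0.29 in 4TO7 and -0.05 in 4T1, with all 4 TGF-beta arrays above all 4 inhibitor arrays in 4TO7. The same test for miR-92a gave adjusted p = 0.0148, with differences of -0.02 in 67NR, -0.02 in 4TO7 and -0.30 in 4T1, where all 4 TGF-beta arrays were below all 4 inhibitor arrays. Over the 34 alternatives the adjusted p was 0.0010 to 0.072 for miR-17 and 0.0050 to 0.24 for miR-92a, past the threshold in 33 for each. Both calls were lost with slide as a fixed block. Which pair of lines differed was not tested on its own.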

How the results depend on the processing

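The 6 calls in each comparison with 67NR held under every alternative run. With slide as a fixed block 0 members passed for TGF-beta over all lines, for TGF-beta in 4T1, for rigidity over all lines and for the TGF-beta effect between lines. Among all tested probes 29.3%, 13.7%, 10.7% and 10.1% passed with this block, in the same order. With slide as a random block (correlation within slides -0.014) no member's call changed. For TGF-beta over all lines, 0 passed with the median of the probes detected on all arrays and 1, miR-17 as higher (0.11, adjusted p = 0.026), in the authors' table. The shares of all tested probes that passed there were 41.6% and 47.3%. For TGF-beta in 4TO7, 2 passed in the authors' table, with array weights and with either replicate block (set number over all lines, or within each line), where miR-20a joined miR-17 with adjusted p = 0.044 and 0.027. Under these settings 21.9% to 23.7% of all tested probes passed. For rigidity in 67NR, 1 passed in the authors' table, miR-92a (-0.15, adjusted p = 0.043), where 10.7% of all tested probes passed.

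Leaving out 1 array gave 1 to 3 calls for TGF-beta over all lines, 1 to 3 in 4TO7, 2 to 4 in 4T1 and 2 to 3 between lines, 1 to 2 for rigidity over all lines, 0 to 1 for rigidity in 4T1 and between lines (1 without the 4T1 compliant inhibitor array of set 2) and 4 to 6 for 4T1 against 4TO7. The shares of all tested probes that passed with 1 array left out are not given here, so these member counts lack a background. With all arrays, 39.5% of the tested probes passed for TGF-beta over all lines, 21.4% in 4TO7, 31.8% in 4T1 and 14.5% between lines. For rigidity 21.9% passed over all lines, 7.4% in 4T1 and 8.22% between lines, and for 4T1 against 4TO7 63% did. The set numbers were not taken to pair the arrays, since not every pair of groups had deviations from group means that correlated above 0.1. Over all pairs r was -0.33 to 0.49 (median 0.09, 32 of 66 above 0.1), and within a line -0.16 to 0.49 (median 0.25, 11 of 18 above 0.1). With the set number within line as a replicate block, the tested probes that passed rose from 53 to 81 for the TGF-beta effect between lines, from 40 to 70 for TGF-beta in 67NR and from 10 to 18 for rigidity in 4TO7, and miR-19b lost its call in 4T1 against 4TO7 (adjusted p = 0.11). In 67NR, 61 probes passed for TGF-beta in the authors' table and 63 with array weights. For rigidity, 21 passed in 4TO7 with the median of the probes detected on all arrays. With slide as a fixed block, 39 passed for rigidity over all lines in place of 80, and in 4T1 12 in place of 27. No call changed its direction. Signal over background limits miR-18a and miR-19a in 67NR, where no difference between conditions can be read.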
